A study of Mus musculus with 6 samples.

Results

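The genes described here are 10 negative regulators of mitogen-activated protein kinase (MAPK) signalling, chosen by name out of the 26128 genes with a count in mouse double negative T (DNT) cells. They are the MAP kinase phosphatases Dusp1, Dusp2, Dusp4, Dusp5, Dusp6 and Dusp10, the Sprouty genes Spry1 and Spry2, and the Spred genes Spred1 and Spred2. All 10 were found in the table and all 10 passed the filter on low counts. The cells began as C57BL/6 mouse CD4+CD25- T cells from spleen and lymph node, were turned into DNT cells in culture with mature DBA/2 dendritic cells and IL-2, and were sorted as CD3+ cells lacking NK1.1, CD4 and CD8. Both groups then received anti-CD3/CD28 beads for 48 h, and the groups were 3 libraries without IL-33 (control) and 3 libraries with IL-33 at 50 ng/ml. Where the replicates of a group were not separate animals or cultures, which the sources used here do not say, p-values measure only the spread between these libraries. These are bulk RNA libraries, in which fewer cells of a type and less RNA per cell cannot be told apart.

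MAPK cascades run from RAS through MEK to ERK, or through other kinases to p38 and JNK, and each ends in a kinase that is switched on by phosphate on a threonine and a tyrosine. MAP kinase phosphatases remove both phosphates. Sprouty and Spred proteins act higher up and hold back the passage of signal from receptors to ERK, and many of these genes are themselves switched on by ERK, which makes them feedback inhibitors. In T cells the ERK branch lies downstream of the T cell receptor, and IL-33 signals through its receptor ST2 to NF-κB and to MAPK.

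Of these genes, Dusp5, Dusp6, Dusp4 and Spred2 rose with IL-33, Dusp10 and Spry2 fell, and Dusp1, Dusp2, Spry1 and Spred1 did not pass the test. The largest called rise by fold was that of Dusp5, from 216 ± 6.36 to 314 ± 10.6 CPM (the count of a gene for every 1000000 counts of its library after TMM scaling, mean ± SD, n = 3), and the largest called fall by fold was that of Spry2, from 31.4 ± 3.24 to 25.4 ± 2.64 CPM. None of the 10 reached a fold change of 1.5.

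The DNA just before the start of 9 of the 10 genes could be matched in RefSeq (GRCm38.p6), Dusp4 being the one without an entry. Stretches of 110 bases are shown for Dusp5 and Dusp6, the members that rose most, and for Dusp1, which carries the only full CRE. Each runs from position -150 to position -41, counted back from the RefSeq start, 5′ to 3′ on the strand of the gene. The capitals mark letters of the CArG box, the CRE or its core, and the E-box.
Dusp5: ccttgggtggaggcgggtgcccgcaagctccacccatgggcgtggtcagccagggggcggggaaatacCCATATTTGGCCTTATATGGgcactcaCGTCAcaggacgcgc
Dusp6: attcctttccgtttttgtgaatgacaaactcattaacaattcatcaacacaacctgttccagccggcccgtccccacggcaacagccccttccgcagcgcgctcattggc
Dusp1: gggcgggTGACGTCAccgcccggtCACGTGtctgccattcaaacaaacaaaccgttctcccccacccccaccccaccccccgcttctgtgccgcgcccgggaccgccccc
They lie at chr19:53528995-53529104 on the plus strand (Dusp5), chr10:99263081-99263190 on the plus strand (Dusp6) and chr17:26508513-26508622 on the minus strand (Dusp1). GENCODE M21 starts Dusp5 36 bases earlier than RefSeq, after the end of the printed stretch, and places an exon of the antisense gene AC137853.2 opposite that stretch. It also has a transcript of Dusp1 that starts 53656 bases earlier, so that the stretch of Dusp1 lies within the gene span, with its last bases in the first exon of another transcript. The stretch of Dusp6 ends before the start of Dusp6 in GENCODE M21.

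Across the 250 bases before the start, Dusp5 held a pair of CArG boxes, the sequence that serum response factor binds, side by side at positions -82 to -73 and -72 to -63. A CArG box was found in 1.40% of 27025 promoters of the same length and 2 or more in 0.0185%. Dusp5 also held a CRE core (TGACG, in 17.9% of promoters), a part of the CRE, the site that CREB binds, at positions -55 to -51. Dusp1 held the full CRE TGACGTCA (1.62% of promoters) at positions -143 to -136, which contains 2 of its 3 CRE cores, and an E-box (CACGTG, 6.05%). Dusp2 held 1 E-box and Spred2 1 CRE core, at positions -51 to -47, where GENCODE M21 places the start 67 bases earlier. GENCODE M21 also starts Dusp10 21079 bases earlier than RefSeq and Spred1 303 bases later, so these windows depend on the start used. Both strands were searched, and no letters of the AP-1 site (TGANTCA, 6.87%), the NF-κB site (3.75%), the EGR site (GCGTGGGCG, 0.54%) or TATAAA (12.97%) were found in the 9 windows. Nor was CCGGAA (12.2%), a long form of the ETS core. Shorter forms of that core, such as GGAA, were not searched, so their absence is not shown. GC boxes (GGGCGG, 32.9% of promoters) were found in all but Dusp6 and Spry2. The GC content of the windows ran from 56.0% to 70.8%, against a median of 52.0% for all promoters. These are matches of letters, and binding was not measured.

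**Figure D1:**
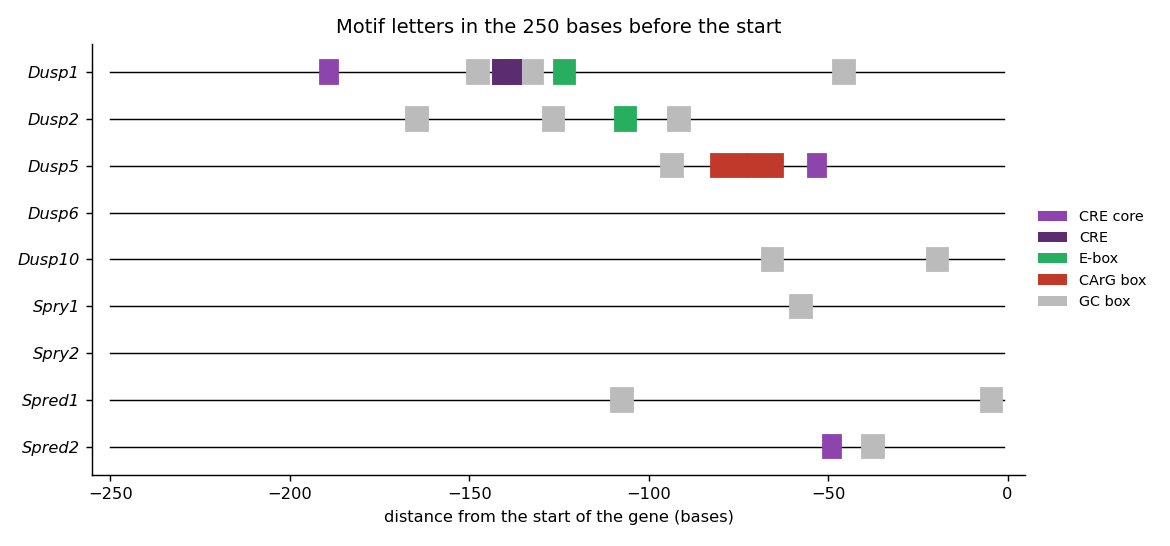
Positions of motif letters (colours) in the 250 bases before the RefSeq start of 9 of the genes, with the distance from the start in bases on the horizontal axis. The pair of CArG boxes of Dusp5 and the CRE of Dusp1 are the only ones among the 9 genes, and Dusp6 and Spry2 hold no match to the letters searched.

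Dusp5 codes for a nuclear phosphatase that acts on ERK. The control libraries held 210.2, 215 and 223 CPM of Dusp5, and the IL-33 libraries held 315, 325 and 303 CPM. The groups lay far apart, with the lowest IL-33 library well above the highest control. Dusp5 rose 1.45-fold (95% interval 1.39 to 1.52), or 0.54 ± 0.033 (SE) on the log2 scale, with an adjusted p of 8.0e-28 in edgeR's quasi-likelihood test. Over all 14671 genes tested, 27.5% passed the threshold of 0.05 on the adjusted p, 13.6% as higher and 13.9% as lower. In GENCODE M21 (GRCm38) Dusp5 lies at chr19:53529109-53542431 on the plus strand, and 547 bases of its exons lie opposite AC137853.2. Whether counting used the strand is not given in the sources used here, so reads of that gene cannot be told apart from those of Dusp5.

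Dusp6 codes for the cytoplasmic phosphatase of ERK, and is often read as a gauge of ERK activity, which was not measured here. Its level was 184, 169 and 182 CPM in the control libraries and 246, 247 and 249 CPM in the IL-33 libraries. The IL-33 libraries were nearly equal and all lay above the controls. The rise was 1.39-fold (95% interval 1.32 to 1.46), 0.47 ± 0.034 (SE) on the log2 scale, with an adjusted p of 1.6e-22 in edgeR. Dusp6 lies at chr10:99263231-99267489 on the plus strand.

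Dusp4, another nuclear phosphatase, which acts on ERK and JNK, was at 44.5, 48.0 and 47.6 CPM in the control libraries and at 57.3, 58.5 and 53.1 CPM with IL-33. Again the groups did not overlap. Dusp4 rose 1.21-fold (95% interval 1.12 to 1.30), 0.27 ± 0.056 (SE) on the log2 scale, with an adjusted p of 4.8e-05 in edgeR. It lies at chr8:34807297-34819894 on the plus strand.

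Dusp10, a phosphatase of p38 and JNK that hardly acts on ERK, went the other way. It was at 184, 178 and 180.1 CPM without IL-33 and at 154, 151 and 162 CPM with it. Every IL-33 library was below every control. Dusp10 fell by 0.22 ± 0.036 (SE) on the log2 scale, to 0.861 times the control level (95% interval 0.819 to 0.905), with an adjusted p of 6.2e-07 in edgeR. It lies at chr1:184013302-184075636 on the plus strand.

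Dusp1 and Dusp2 are nuclear phosphatases that are classically induced within the first hour of stimulation, Dusp2 mostly in blood cells. Dusp1 was at 9.80, 10.1 and 10.8 CPM in control libraries and at 8.93, 9.35 and 10.98 CPM with IL-33. Dusp2 was at 56.2, 55.3 and 58.0 CPM in control libraries and at 58.5, 58.9 and 57.1 CPM with IL-33. The groups overlapped for both genes. The fold change of Dusp1 was 0.955 (95% interval 0.807 to 1.13, adjusted p = 0.738 in edgeR) and that of Dusp2 was 1.03 (95% interval 0.959 to 1.11, adjusted p = 0.603). Both intervals end below the lower bounds for Dusp5 and Dusp6. Dusp2 lies at chr2:127336159-127338376 on the plus strand, and Dusp1 at chr17:26505590-26562128 on the minus strand, where 11 exon bases face Ergic1.

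Spry2 and Spry1 code for Sprouty proteins, which are modified on a tyrosine after receptor activation and block early steps between the receptor and ERK. Spry2 was at 27.8, 34.1 and 32.3 CPM without IL-33 and at 24.6, 28.3 and 23.2 CPM with it. Control replicate 1 lay just below IL-33 replicate 2, and all other controls lay above all IL-33 libraries. Spry2 fell by 0.31 ± 0.076 (SE) on the log2 scale, to 0.809 times the control level (95% interval 0.728 to 0.899), with an adjusted p of 0.00101 in edgeR. The adjusted p stayed below the threshold in 12 alternative fits, with a highest value of 0.0306 without control replicate 2. Spry2 lies at chr14:105891947-105896819 on the minus strand.

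Spry1 was close to the limit of detection. The control libraries held 17, 21 and 7 counts and the IL-33 libraries 27, 20 and 12 counts, or 0.718 ± 0.364 and 0.916 ± 0.359 CPM, where 3 counts, the upper limit that a count of 0 allows, come to 0.134 to 0.148 CPM (counting error only). The groups overlapped, and the fold change of 1.28 had a 95% interval of 0.725 to 2.26 (adjusted p = 0.576 in edgeR), so that no difference was detectable at this depth. Spry1 lies at chr3:37639947-37644598 on the plus strand, and 710 bases of its exons lie opposite Gm42922.

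Spred1 and Spred2 code for Sprouty-related membrane proteins that bring the RAS GTPase-activating protein neurofibromin to RAS and that can bind the receptor KIT. Spred2 was at 54.9, 60.3 and 69.6 CPM in the control libraries and at 71.1, 75.7 and 72.3 CPM with IL-33. The groups did not overlap, and control replicate 3 came closest to the IL-33 libraries. Spred2 rose 1.18-fold (95% interval 1.09 to 1.29), 0.24 ± 0.060 (SE) on the log2 scale, with an adjusted p of 0.00297 in edgeR and a highest value of 0.0476 among the alternatives, without control replicate 2. Spred1 was at 24.8, 24.3 and 30.1 CPM in control libraries and at 27.99, 25.9 and 25.7 CPM with IL-33. These ranges overlapped, and the fold change of Spred1 was 1.00 (95% interval 0.903 to 1.12, adjusted p = 0.971). Spred2 lies at chr11:19924375-20024026 and Spred1 at chr2:117121374-117182279, both on the plus strand.

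**Figure D2:**
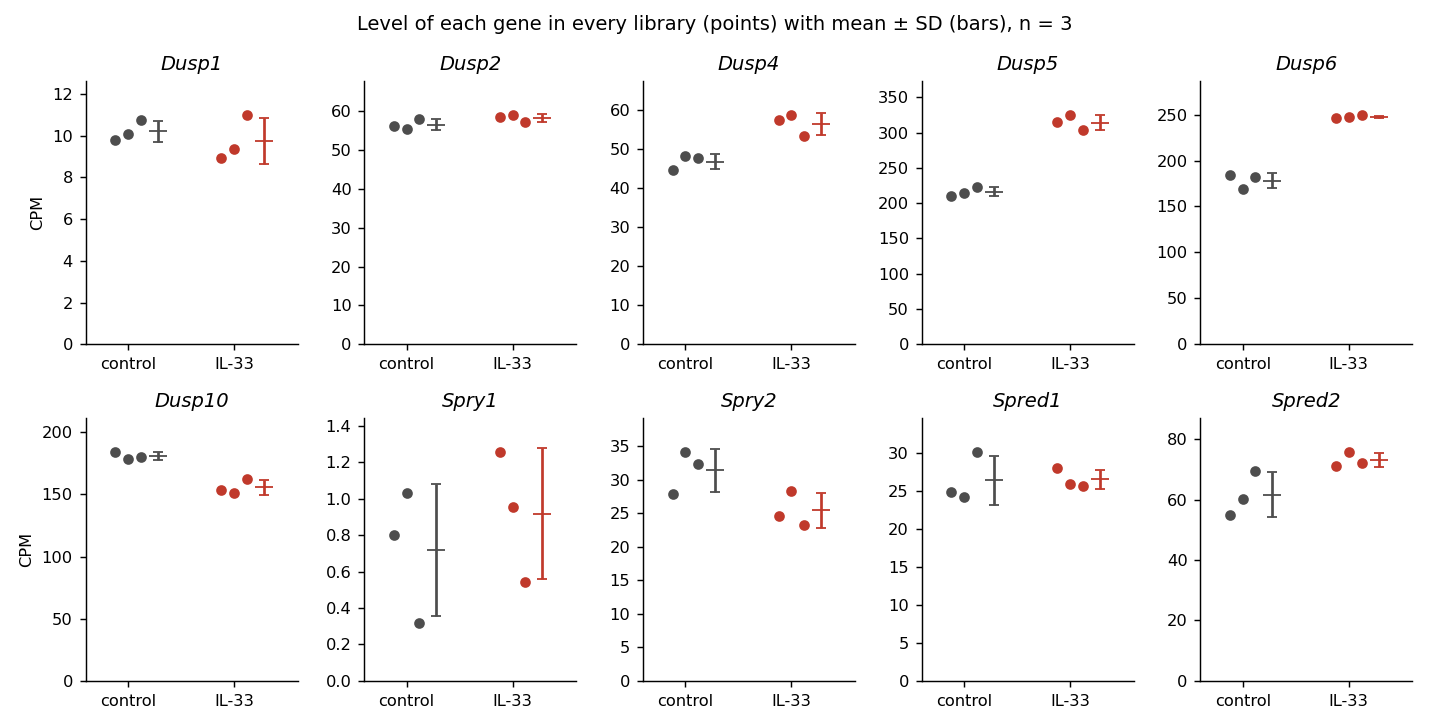
Level in CPM (vertical axes, from 0) of each gene in the 3 control (grey) and 3 IL-33 (red) libraries, as points, with mean ± SD as bars. The groups are apart for Dusp4, Dusp5, Dusp6, Dusp10 and Spred2, and overlap for the other genes.

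Counted together, 6 of the 10 genes passed the adjusted p (4 higher and 2 lower), against 27.5% of all genes tested, and the libraries did not overlap between groups for 5 of 10, against 38.9% of all genes. In CPM per kilobase of exon, the 6 called genes lay above 74.3% (Spry2) to 97.4% (Dusp5) of tested genes. The share called among genes of like level was not computed. With a fold change of at least 1.5 in addition, 0 of 10 passed, against 4.87% of all genes. The median log2 fold change was 0.14 over the 10 genes and -0.00063 over all genes, and the median size, sign apart, was 0.257 and 0.152. In size, 10.4% of all genes changed more than Dusp5 and 13.6% more than Dusp6. The 6 called genes were the same in each of 12 alternative fits.

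**Figure D3:**
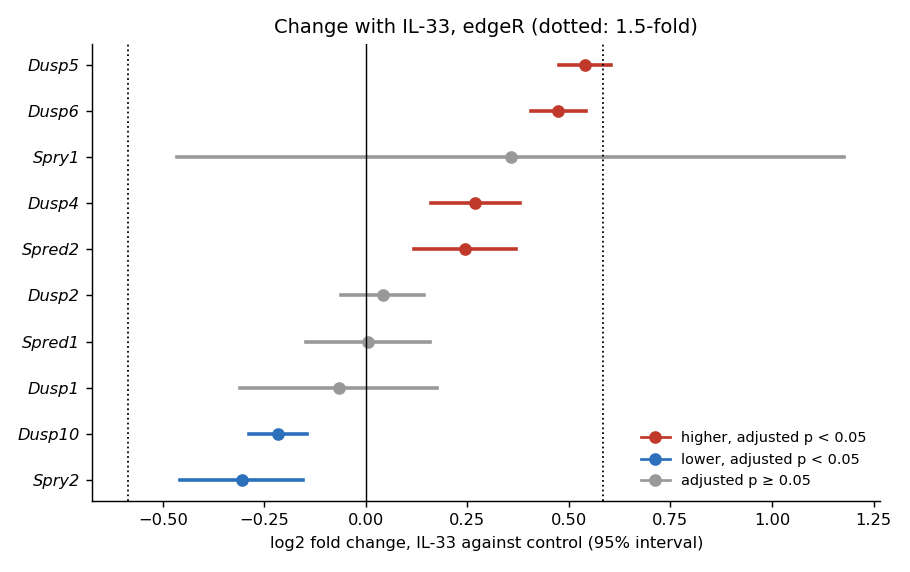
Log2 fold change of IL-33 against control (horizontal axis) for each of the 10 genes, with the 95% interval of edgeR's fit as a bar and the 1.5-fold threshold dotted. Dusp5 comes nearest to the threshold at 0.54, and Spry1 has the widest interval.

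Levels can be compared between genes only per length, here as CPM per kilobase of exon. In control cells Dusp5 was the most abundant at 87.4 CPM per kilobase, followed by Dusp10 at 59.4, Dusp6 at 56.9, Dusp2 at 28.2 and Dusp4 at 17.0. The ranges of Dusp10 and Dusp6 overlapped. Below them came Spry2 at 15.04, Spred2 at 13.3, Spred1 at 3.89, Dusp1 at 3.09 and Spry1 at 0.247 CPM per kilobase. Spry2 overlapped with both Dusp4 and Spred2 in its range, and the other neighbours did not overlap.

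With IL-33 the order of Dusp6 (79.0) and Dusp10 (51.2) and that of Spred2 (15.8) and Spry2 (12.2) were turned round, while Dusp5 stayed first at 127 CPM per kilobase. No neighbours in the IL-33 order overlapped, though with the length of the longest transcript in place of all exons Dusp1 and Spred1 did. The summed level of the 6 phosphatases was 251, 248 and 257 CPM per kilobase in control libraries and 309, 313 and 307 with IL-33, or 22.9% higher. The summed level of the Sprouty and Spred genes was 29.1, 33.3 and 35.1 CPM per kilobase in control libraries and 31.8, 34.1 and 30.7 with IL-33, with overlapping groups. Within the phosphatase sum, the share of Dusp5 went from 34.7% to 41.01% and that of Dusp6 from 22.6% to 25.5%, while Dusp10 went from 23.6% to 16.5%. Within the other sum, Spry2 went from 46.3% to 37.7% and Spred2 from 40.98% to 49.1%. These shares follow from the values above and were not tested.

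**Figure D4:**
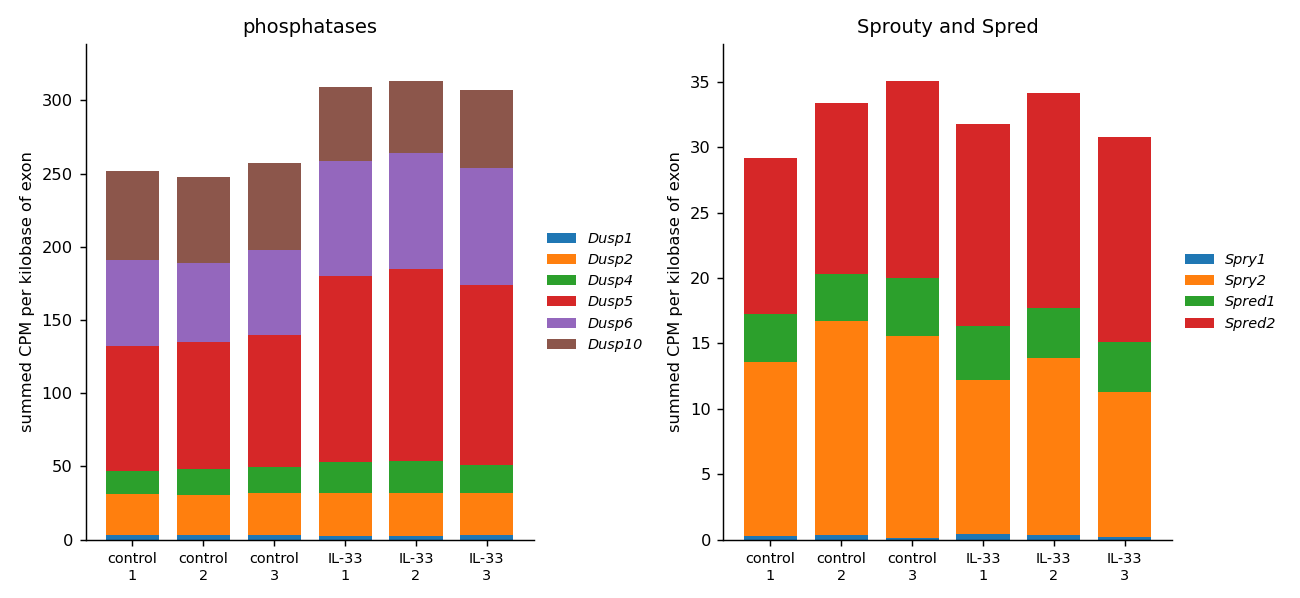
Summed CPM per kilobase of exon (vertical axes, from 0) of the 6 phosphatases (left) and of the 4 Sprouty and Spred genes (right) in each library, split by gene in colour. The phosphatase sums are 248 to 257 in control and 307 to 313 in IL-33 libraries, and the sums on the right overlap.

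Ratios within a library do not depend on how libraries are scaled, and 4 pairs were compared. The log2 ratio of Dusp2 to Dusp4 was 0.28 ± 0.067 in control and 0.048 ± 0.050 in IL-33 libraries (SD, n = 3), and that of Spred1 to Spred2 was -1.22 ± 0.085 and -1.46 ± 0.10. In both pairs the groups were apart, and the exact two-sided permutation p of 0.1 was the smallest that 3 against 3 libraries allow (0.2 after adjustment over the 4 pairs), so that this test could not pass 0.05. The log2 ratio of Dusp5 to Dusp6 was 0.28 ± 0.080 and 0.34 ± 0.056 (exact permutation p = 0.4, adjusted 0.4). The ratio of Spry1 to Spry2 differed by 0.74 on the log2 scale (exact permutation p = 0.4, adjusted 0.4), with an SD of 0.91 in control libraries. A further ratio was picked after its values had been seen and is only described. Per kilobase, Dusp6 stood to Dusp10 as 0.97, 0.918 and 0.983 in control libraries and as 1.56, 1.59 and 1.49 with IL-33.

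The 3′ untranslated region of a transcript can hold TATTTAT, the core of the AU-rich element that marks many short-lived transcripts, and 29.8% of 11898 tested genes held it. Among the members, Dusp1 held 3, Dusp2 1, Spry1 2, Spry2 2, Spred1 3 and Spred2 1, on the longest coding transcript of GENCODE M21. Dusp4, Dusp5, Dusp6 and Dusp10 held none in regions of 1109 to 1189 bases. For regions of like length, from 26.7% to 28.2% of genes held it. For the members with a match this share was 16.3% to 24.6% for Dusp1, Dusp2, Spry1 and Spry2, but 45.1% for Spred2 and 59.4% for Spred1, whose regions are longer. Sites of 30 bases around the first match are shown for the Sprouty pair and for Dusp1 and Dusp2, with the match in capitals.
Spry1: attgtaaagaaTATTTATtatgcgaatctc
Spry2: agtgtaaagaaTATTTATttgaagttttat
Dusp1: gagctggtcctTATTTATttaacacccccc
Dusp2: acagcactttaTATTTATatagaacattga
The genes with a match include 1 that fell (Spry2), 1 that rose (Spred2) and 4 that did not pass, and the 4 without it are 3 that rose and 1 that fell. RNA stability was not measured.

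Beside the members, 5 other MAP kinase phosphatase, Sprouty or Spred genes were tested, of which 2 passed as higher and none as lower. Over all genes tested, 13.6% passed as higher and 13.9% as lower. Spred3 rose by 0.33 ± 0.12 (SE) on the log2 scale (adjusted p = 0.0254 in edgeR) and Dusp9, an ERK phosphatase, by 0.53 ± 0.21 (adjusted p = 0.0443) from 2.84 to 4.10 CPM. Both are near the threshold, and were above it in 3 and 7 of the 12 alternatives, with adjusted p up to 0.206 and 0.277. Dusp7, Dusp16 and Spry4 did not pass. Among 9 atypical dual-specificity phosphatases, which lack the docking domain for MAP kinases, 2 passed as higher. These were Dusp11 at 0.12 ± 0.031 (SE, adjusted p = 0.00106) and Dusp18 at 0.48 ± 0.19 on the log2 scale, the latter with an adjusted p of 0.0491 that was above the threshold in 9 of 12 alternatives.

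The cascade that the members act on was counted next. Of 23 genes from RAS to ERK and its downstream kinases, 10 rose and 1 fell, against 13.6% and 13.9% of all genes tested. The median log2 fold change was 0.071, and none reached 1.5-fold. Rras, a RAS relative, rose by 0.43 ± 0.11 (SE) on the log2 scale, and Map2k1, the kinase of ERK also called MEK1, by 0.28 ± 0.038, with adjusted p of 0.00159 and 8.6e-10 in edgeR. Of 10 RAS GTPase-activating proteins, which switch RAS off, none rose and 2 fell, against the same 13.6% and 13.9% of all genes. Dab2ip fell by 0.28 ± 0.064 (SE, adjusted p = 0.000261) and Rasal3 by 0.22 ± 0.030 (adjusted p = 2.0e-09).

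The p38 and JNK cascade, which Dusp10 acts on, had 2 genes that rose and 5 that fell among 21 tested, against 13.6% and 13.9% of all genes tested. Its median log2 fold change was -0.033. Mapk10, which codes for JNK3, went from 10.5 ± 0.309 to 6.05 ± 1.32 CPM, a fall by 0.79 on the log2 scale (adjusted p = 1.1e-06), and was the only one past 1.5-fold. Mapk11, which codes for p38β, fell by 0.49 ± 0.14 (SE, adjusted p = 0.00461), from 8.29 to 5.89 CPM. The 2 genes that rose were Map3k1 and Mapkapk2. Map3k1 rose by 0.25 ± 0.040 (SE, adjusted p = 1.9e-07 in edgeR), from 101 to 120 CPM. Mapkapk2 rose by 0.088 ± 0.034 (SE, adjusted p = 0.0404), from 206 to 219 CPM. Map3k8 was also among the falls, by 0.27 ± 0.044 (SE, adjusted p = 2.6e-07), from 84.1 to 69.8 CPM. It was placed here and not with the genes from RAS to ERK, so the counts of both cascades depend on that choice. The other p38 and JNK genes tested, Mapk8, Mapk9, Mapk12 and Mapk14, did not pass. Of these, Mapk14 was at 134.7 and 129.8 CPM (adjusted p = 0.333 in edgeR) and Mapk9 at 63.3 and 65.1 CPM (adjusted p = 0.612), well above Mapk10 and Mapk11 in level. Of 10 genes for partners of Sprouty and Spred, 2 rose and none fell, against the same 13.6% and 13.9% of all genes tested. Kit, the receptor that Spred proteins can bind, went from 107 ± 5.32 to 176 ± 13 CPM, 0.72 on the log2 scale (adjusted p = 2.5e-20). Cbl, a ubiquitin ligase that binds Sprouty, rose by 0.099 on the log2 scale (adjusted p = 0.00603), which was 0.0906 without control replicate 2.

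Among 16 tested transcripts known to be induced by ERK in many cell types, 6 rose and 2 fell, against 13.6% and 13.9% of all genes tested. Their median log2 fold change was 0.15, and they did not move in one direction. Egr1 went from 222 ± 17.6 to 432 ± 14.7 CPM and Fos from 5.35 ± 0.618 to 8.98 ± 0.94 CPM, rises of 0.96 and 0.75 on the log2 scale with adjusted p of 3.2e-09 and 1.1e-05. Egr2 fell by 0.70 on the log2 scale (adjusted p = 1.6e-14). Egr3 went from 107 ± 19.96 to 52.3 ± 4.17 CPM, with a log2 fold change of -1.03 and an adjusted p of 0.0184 that was above the threshold in 6 of 12 alternatives, at most 0.106.

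**Figure D5:**
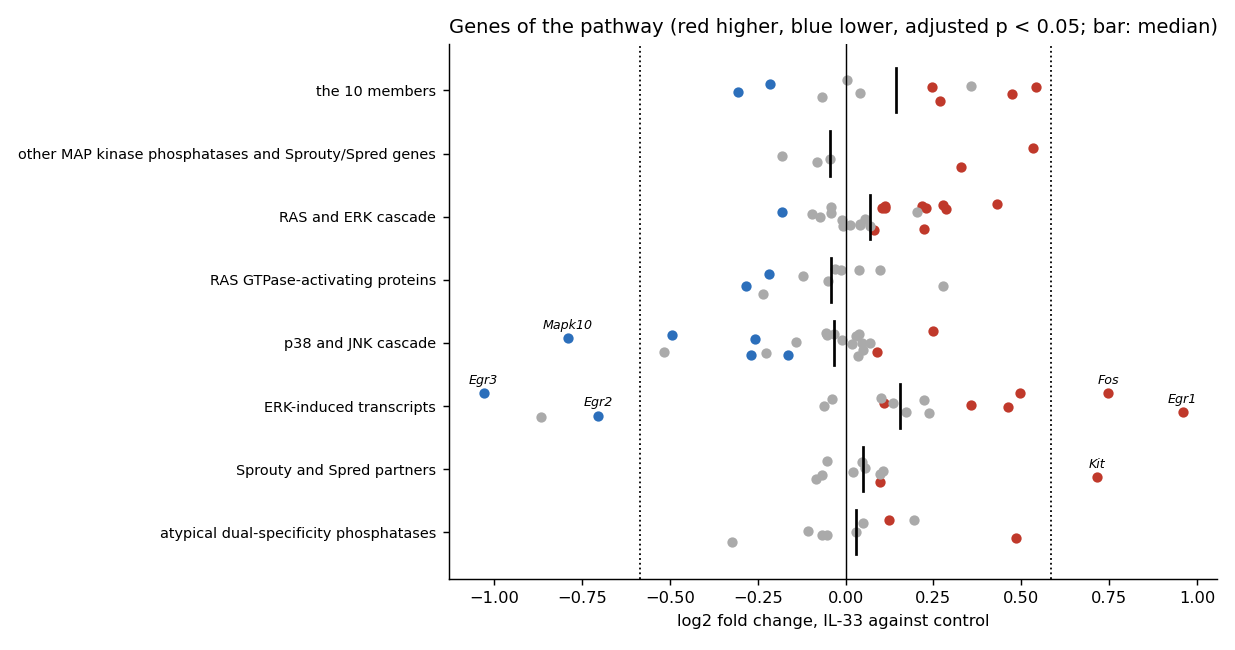
Log2 fold change of IL-33 against control (horizontal axis) for every tested gene of each list, with genes past the adjusted p of 0.05 in red (higher) or blue (lower), the list median as a bar and the 1.5-fold threshold dotted. Genes past both thresholds are named, and none of the 10 members is among them.

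The label of the cells was checked against marker genes in all 6 libraries. The 10 T cell genes, all tested, summed to 2440 to 2589 CPM in control and 2507 to 2576 CPM in IL-33 libraries, with 2 that rose (Cd3g and Cd28) and 4 that fell (Cd2, Cd5, Lck and Lat) past the adjusted p. Cd4 was at 0.934 and 0.373 CPM, but Cd8a was at 545 ± 13.6 and 400.2 ± 9.15 CPM in cells sorted as lacking CD8, with Cd8b1 at 9.68 and 16.3 CPM. Of 11 dendritic and myeloid markers 9 were listed and 5 tested. Their sum was 101 to 102 CPM in control and 77.6 to 85.9 CPM in IL-33 libraries, and of the 5 only Itgax fell, from 54.6 to 26.0 CPM. Cd68 rose from 29.4 to 33.6 CPM and Itgam from 2.61 to 4.83 CPM, Xcr1 (11.5 and 12.4 CPM) and Zbtb46 (2.89 and 2.98 CPM) did not pass, and Flt3, Csf1r, Lyz2 and Adgre1 were not tested. Of 7 mast cell and basophil markers 6 were listed and 3 tested. The 6 summed to 16.3 to 22.04 and 12.2 to 14.9 CPM, with Cpa3 at 10.9 and 7.10 CPM and Mcpt8 at 5.81 and 4.32 CPM. The 4 NK cell markers summed to 415 to 417 and 381 to 403 CPM, mostly Eomes, with Klrb1c at 33.5 and 25.6 CPM and Ncr1 at 0.048 and 0.11 CPM, and B cell markers summed to 4.79 to 6.35 CPM over all libraries. Their part in the values of the members was not tested. Library totals ran from 20256342 to 22336050 counts.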

How the data were processed

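RNA was sequenced from 3 control and 3 IL-33 libraries of DNT cells, grouped by their labels. The files that the authors deposited hold unnormalized read counts for every gene, and 1 column of signal, the authors' mean of scaled counts over all libraries, which was recomputed to within 2.12e-07%. The submitters' processing notes name Bowtie 0.12.2 and the build mm8, with the counter, its annotation and its strand setting not given in the sources used here. For the kit, the labels name TruSeq and the methods NEBNext Ultra. Totals of 20256342 to 22336050 counts put the limit of 3 counts at 0.134 to 0.148 CPM.

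Of 26128 listed genes, 26072 matched a symbol in GENCODE M21 (GRCm38), the source of positions and exon lengths given here. Genes were filtered with filterByExpr (minimum count 10, minimum total 15), scaled by TMM and put through the quasi-likelihood test of edgeR (two-sided and robust, Benjamini-Hochberg over 14671 genes). The thresholds of 0.05 and 1.5-fold are those of the study. Alternatives were DESeq2, limma-voom, other scaling and filters, a test against 1.5-fold, a replicate block and each library left out. The fit was tested on simulated data. The software was DESeq2 1.42.0, limma 3.58.1 and edgeR 4.0.16 under R 4.3.3.

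The members and lists were chosen with earlier results of these data known. Named genes are the 10 members and the genes of each pathway list past both thresholds or else the largest called changes up to 2. Markers could be named where over 1 CPM or past both thresholds, and not all of these are. Other genes were named after their values were seen: Dusp7, Dusp16, Spry4, Map3k1, Map3k8, Mapk8, Mapk9, Mapk12, Mapk14 and Mapkapk2, and markers at low level. A gene of the pathway lists is not reported here.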

Additional observations from a re-analysis of the deposited data

How the results depend on the processing

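The 6 called members kept direction and call in all 12 alternative fits, and Dusp1 and Dusp2 kept their direction. Leaving out each library in turn gave Spred1 a log2 fold change from -0.052 to 0.11 and Spry1 one from -0.0030 to 0.71. It was negative for Spred1 without control replicate 1 (-0.038), control replicate 2 or IL-33 replicate 1 (-0.032), and for Spry1 without control replicate 3, and neither passed the test in any fit. Spry1 was not tested with a filter of 1 CPM in every library of a group. The number of genes past both thresholds was 714, 501 with DESeq2, 621 to 719 without 1 library, and 113 when the test was made against the 1.5-fold threshold, which asks for more than the thresholds do. Of the list counts past the adjusted p, that of the RAS and ERK cascade was 11, 7 with DESeq2 and 8 to 12 without 1 library. That of the other phosphatase, Sprouty and Spred genes was 2, 0 with DESeq2, 1 with limma-voom or no filter, and 0 to 2 without 1 library. That of the atypical phosphatases was 2, 1 with DESeq2, limma-voom, no filter or the replicate block, and 1 to 2 without 1 library, and that of the Sprouty and Spred partners was 2, and 1 to 2 without 1 library. The cause was not tested.

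With the length of the longest transcript in place of all exons, control levels per kilobase were 4.42 for Dusp1, 34.9 for Dusp2, 63.7 for Dusp6, 64.8 for Dusp10 and 4.39 for Spred1, which puts Dusp1 level with Spred1 and leaves Dusp10 next to Dusp6, and the others moved by less than the SD. The replicate block gave 666 genes past both thresholds and changed no call among the members. Libraries with the same number showed no shared deviation (correlations of 0.011, -0.0080 and 0.015). This cannot tell whether they came from the same animal or culture, which the sources used here do not say. Depth limits Spry1 most.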
